A study of Homo sapiens with 6 samples.

Results

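The genes described here are 60 factors of ribosomal RNA processing and of the nucleolus, the nuclear body in which ribosomes are made. They were taken by gene symbol from a list that was written with earlier results of these data known. The 60 factors comprised 29 small subunit factors, 20 large subunit factors, 7 core proteins of small nucleolar ribonucleoproteins (snoRNPs) and 4 other nucleolar proteins. The array annotation gave 87 probes for 58 of them, and 78 of these were kept, meaning that their detection p was below 0.05 on 3 arrays or more out of 6. These represented 56 of the 11542 genes tested. The probe that stood for each of these 56 was detected on all 6 arrays, so none passed through 1 group alone. The expression of WDR43 and GNL3 was not analysed here. The 1 probe listed for NPM1 was above background on 0 of the 6 arrays. The probe of PWP2 was above background on 0 control arrays and on 2 of the 3 sorafenib arrays, so it did not pass the filter.

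RNA came from HepG2, an established human line labelled hepatocellular carcinoma, and was hybridised as biotin-labelled cRNA to Illumina BeadChips. The 3 control arrays held cells given the solvent DMSO for 24 h. The 3 sorafenib arrays held cells given sorafenib, an inhibitor of RAF and receptor tyrosine kinases, for 24 h at a dose labelled 3 mM. The unit is printed as labelled and is unchecked; cell culture work mostly uses micromolar amounts. HepG2 is a single line, and nothing in the labels says whether each replicate was its own culture. The p-values therefore describe only how far these arrays spread, which may be technical.

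Ribosomal RNA is transcribed in the nucleolus as one long precursor, on which snoRNPs and a large assembly called the small subunit processome gather while it is still being made. The precursor is then modified, folded and cut, and its parts mature along separate small subunit and large subunit routes before export to the cytoplasm. Liver cells carry out much protein synthesis, and enlarged nucleoli have long been used as a histological mark of growing tumour cells.

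The arrays had mean intensities of 739 to 1050 and detected 19440 to 20138 of 47323 probes. Arrays of the same group correlated at 0.991 to 0.995 over the genes tested, and arrays of different groups at 0.975 to 0.985. The 8 hepatocyte markers with a named probe (ALB, AFP, APOA1, APOB, TTR, SERPINA1, FGB and TF) were all detected, whereas 0 of 4 endothelial and 0 of 5 fibroblast markers were. Of the T and B cell markers only CD79A was detected, at a mean log2 level of 6.63 in control. Of 4 macrophage markers CD14 and CD68 were detected, at 8.22 and 10.06 in control. Control means of the hepatocyte markers ran from 6.73 (FGB) to 15.57 (APOA1).

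With sorafenib, 38 of the 56 factors were higher and 0 were lower at an adjusted p under 0.05 (67.9%), where 11.0% of all genes were called higher and 14.3% were called lower. On all 3 sorafenib arrays 46 factors stood above all 3 control arrays and 2 stood below, with 8 overlapping. Over all genes these shares were 21.6% above and 23.3% below. The differences were modest: the median was 0.38 on the log2 scale, a fold of 1.30, with quartiles at 0.25 and 0.53 and a range from -0.33 to 0.95. The median difference over all genes was 0.00. Calls came from limma fitted to all 11542 genes, with Benjamini-Hochberg adjustment over them. The count fell to 20 when arrays were scaled to a common median instead of quantile normalised, and lay between 26 and 29 when 1 array was left out. These are bulk cultures, in which a change in the share of cells of a type and a change in RNA per cell cannot be told apart.

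**Figure D1:**
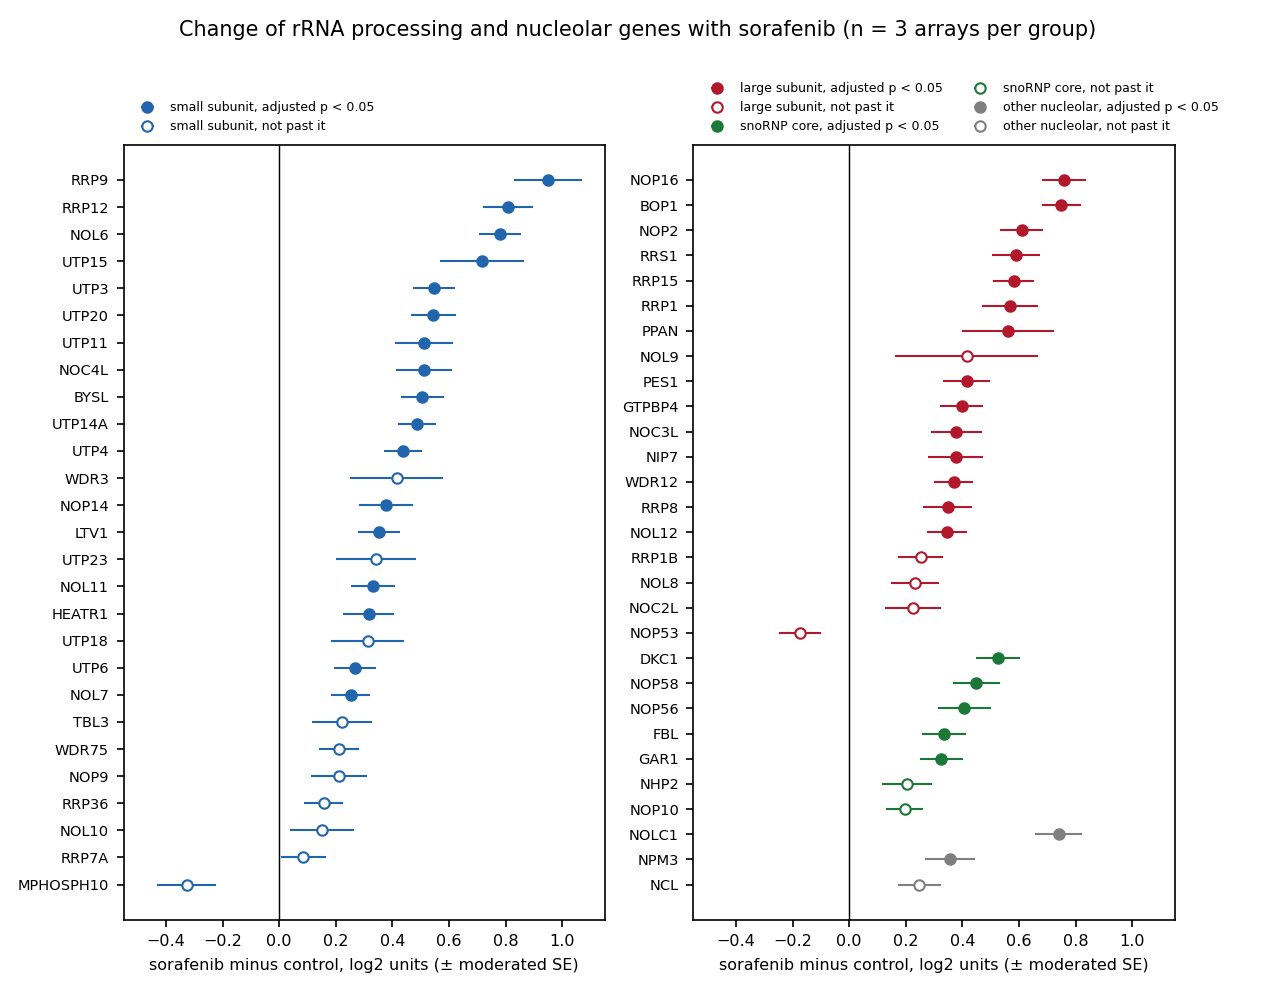
Difference in log2 level, sorafenib minus control, of each of the 56 factors tested, by subgroup. Points are fitted differences, lines are the moderated SE, and filled points are the 38 factors called at an adjusted p under 0.05. All but MPHOSPH10 and NOP53 lie to the right of 0.

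The average log2 level of the 56 factors was 10.57 ± 0.0079 in control and 10.97 ± 0.039 with sorafenib (SD, n = 3 each), a difference of 0.40. The control arrays ranged from 10.56 to 10.58 and the sorafenib arrays from 10.94 to 11.01, so the groups did not overlap. Sorafenib replicate 3 was the highest of the 6 arrays. Taken by replicate number, the differences were 0.38, 0.36 and 0.45.

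**Figure D2:**
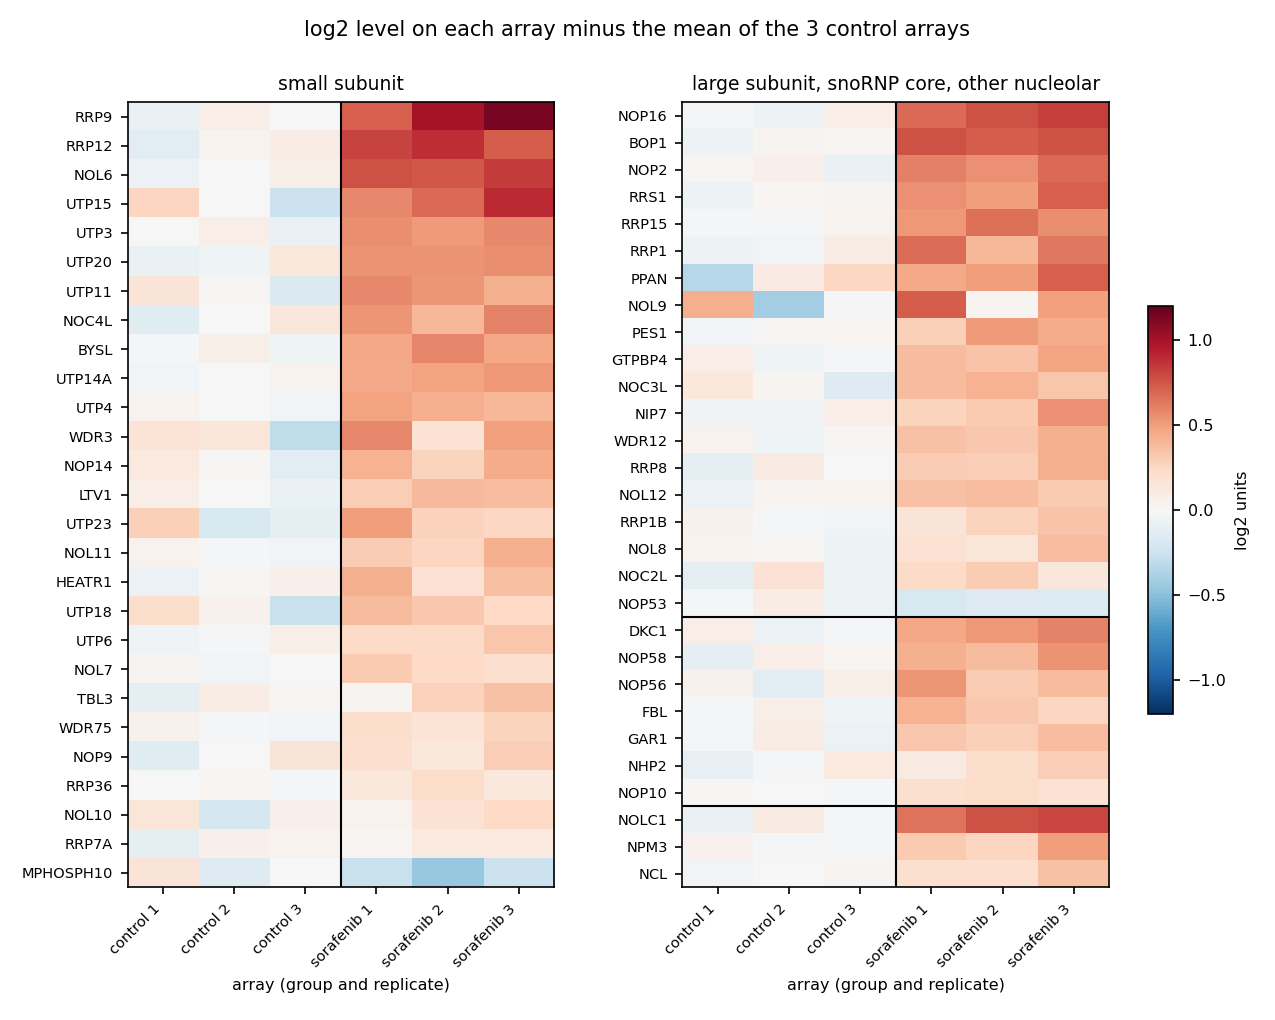
Log2 level of each factor on each of the 6 arrays, minus the mean of the 3 control arrays, with factors in rows ordered by subgroup and arrays in columns. Colour gives log2 units, red for a higher and blue for a lower level. The sorafenib columns are red to pale in nearly all rows, and blue for MPHOSPH10 and NOP53.

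The factors were mostly well expressed: their median control level was 10.8, and the median factor lay at percentile 75.6 of all genes tested. Of the 43 factors above the median level of all genes, 32 were called higher, beside 12.1% of the genes above that level. Of the 13 below it, 6 were, beside 11.0% of all genes tested at any level. Among 14 factors in the top decile of levels, 10 were called higher, beside 11.3% of all genes there. Across the 56 factors level and difference correlated at a Spearman's rho of -0.25 and a Pearson's r of -0.27. That is a description across genes measured on the same 6 arrays.

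The promoters of the factors were searched for the E-box CACGTG, a motif bound by MYC with MAX and also by other proteins of the same fold. It reads the same on both strands. RefSeq (GRCh38.p14) gave 55 windows for 51 of the 60 genes, each with 250 bases before and 50 after a transcription start. These include windows of NPM1, PWP2, WDR43 and GNL3, whose expression was not tested, so the factors' shares are not of tested genes only. The motif lay in 20 of the 55 windows (36.4%), beside 9.25% of 13355 windows of the other genes tested and 7.26% of all 35116 windows. Median GC content was 64.0% in the factors' windows and 64.3% in those of the other genes tested.

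The small subunit factors had it in 12 of 25 windows, the large subunit factors in 5 of 19, the snoRNP core in 3 of 7 and the other nucleolar proteins in 0 of 4. Factors called higher had it in 14 of 35 windows and tested factors not called in 3 of 14, a difference that was not tested. The further small subunit and large subunit factors described below had it in 9 of 24 (37.5%) and 13 of 32 windows (40.6%), shares like that of the 60 factors, and cytosolic ribosomal protein genes in 4 of 78 (5.13%). From 40 bases before to 30 after the start, a stretch chosen after the positions were seen, 14 of the factors' windows had it (25.5%), beside 2.67% of those of the other genes tested. There the shares were alike in factors called higher, 8 of 35 windows (22.9%), and in tested factors not called, 3 of 14 (21.4%). These matches are descriptions of the sequence and not evidence of binding. The 8 called factors with the motif in that stretch are shown because their sequences carry this pattern, 5′ to 3′ on the strand of the gene, with the motif in capitals.
RRP9, chr3:51941875-51941944, minus strand: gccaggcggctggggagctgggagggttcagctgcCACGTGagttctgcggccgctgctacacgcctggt
UTP20, chr12:101280065-101280134, plus strand: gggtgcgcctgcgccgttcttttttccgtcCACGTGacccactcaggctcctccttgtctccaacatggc
UTP4, chr16:69132609-69132678, plus strand: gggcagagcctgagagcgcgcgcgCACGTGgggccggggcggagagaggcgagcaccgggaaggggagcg
NOL6, chr9:33473895-33473964, minus strand: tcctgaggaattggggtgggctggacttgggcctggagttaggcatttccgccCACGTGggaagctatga
NOP14, chr4:2963377-2963446, minus strand: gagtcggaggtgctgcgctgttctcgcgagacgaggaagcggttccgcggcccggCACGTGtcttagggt
PES1, chr22:30591881-30591950, minus strand: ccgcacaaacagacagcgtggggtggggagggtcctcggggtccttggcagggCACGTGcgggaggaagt
NOC3L, chr10:94362910-94362979, minus strand: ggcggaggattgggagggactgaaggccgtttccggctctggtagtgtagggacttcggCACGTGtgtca
FBL, chr19:39846350-39846419, minus strand: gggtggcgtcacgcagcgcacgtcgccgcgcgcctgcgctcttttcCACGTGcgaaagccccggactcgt

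In these 8 windows the motif's position shifts from gene to gene. Its first base lay 5 bases before the start in RRP9, the factor with the largest difference, 10 before in UTP20 and 16 before in UTP4. It lay after the start in the other 5. The window of NOP16, the large subunit factor with the largest difference, held no match, which says only that these letters are not in it.

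Among the 27 small subunit factors tested, 17 were called higher (63.0%, beside 11.0% of all genes) and 0 lower (beside 14.3%). Their median difference was 0.35 on the log2 scale. All sorafenib arrays stood above all control arrays for 21 of them, beside 21.6% of all genes. The count was 10 with median scaling and 10 without control replicate 2. The largest changes were those of RRP9, RRP12 and NOL6, which act at different stages of the route.

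RRP9 encodes the protein that sets the U3 snoRNP, which base-pairs with the precursor during its first cuts, apart from other box C/D particles, and its promoter is the first of those printed. Its log2 level was 7.84, 8.00 and 7.93 on the control arrays and 8.64, 8.92 and 9.06 on the sorafenib arrays. Every sorafenib array was well above every control array, and the spread was wider among the former. The difference was 0.95 ± 0.12 (SE, n = 3 per group), a fold of 1.93, with an adjusted p of 0.00313 in limma. It was the largest change of the 56 factors in the main fit. Over the 18 alternatives it ran from 0.70 to 1.07, and that of RRP12 from 0.74 to 0.85.

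The UTP-A complex binds the start of the precursor early and links its transcription with its processing. Of its 5 members tested, 4 were called higher, namely UTP15 (0.72), UTP4 (0.44), NOL11 (0.33) and HEATR1 (0.32), while WDR75 had a difference of 0.21 with an adjusted p of 0.0694. HEATR1, the large scaffold of this complex, stood at log2 levels of 10.92, 11.00 and 11.04 in control and at 11.41, 11.16 and 11.34 with sorafenib. The groups did not overlap, although sorafenib replicate 2 lay close to the highest control array. The difference of 0.32 ± 0.09 (SE, n = 3 per group; limma adjusted p 0.0442) passed narrowly. It missed the threshold in 9 of 18 alternatives, 5 of which left out 1 array, with an adjusted p of up to 0.140. UTP15 lost its call without control replicate 2 (adjusted p 0.0514) and UTP4 with median scaling only (adjusted p 0.0554). NOL11 lost its call with median scaling and without 4 of the 6 arrays.

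UTP-B, which binds next and holds the U3 particle in place, gave fewer calls. UTP6 was called higher (0.27). Its call was lost when any 1 array was left out, with median scaling and with no detection filter. WDR3 (0.41), UTP18 (0.31) and TBL3 (0.22) had positive differences that did not pass, with adjusted p between 0.109 and 0.176. WDR3 was the dimmest of the 56 factors, at a mean log2 level of 5.98 in control.

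Within UTP-C, whose members join the forming particle later, NOL6 alone was called. The NOL6 log2 level was 10.80, 10.86 and 10.94 on the control arrays and 11.63, 11.61 and 11.70 on the sorafenib arrays. The groups were far apart and each was tight. The difference was 0.78 ± 0.07 (SE, n = 3 per group; limma adjusted p 0.00135), a fold of 1.72. A second NOL6 probe was far dimmer, at control log2 levels of 5.85 to 5.98. It gave 0.26, with a limma adjusted p over probes of 0.0553, so the probes differ in size and in call. RRP36 and RRP7A, the other members tested, had differences of 0.16 and 0.08 that did not pass.

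The Mpp10 complex and its partners tie the precursor to U3. UTP3 and UTP11 of this group were called higher, by 0.55 and 0.51, the latter not without sorafenib replicate 2 (adjusted p 0.0512). MPHOSPH10, the scaffold of the complex, was the only small subunit factor with a negative difference. Its log2 level was 13.46, 13.15 and 13.31 in control and 13.03, 12.85 and 13.05 with sorafenib. All sorafenib arrays lay below all control arrays. The difference of -0.33 ± 0.10 (SE, n = 3 per group) had an adjusted p of 0.0607 in limma and 0.0245 in the blocked fit by replicate number, and passed in 7 of 18 alternatives. Its other detected probe was far dimmer, at log2 levels of 6.27 to 7.03 over the 6 arrays. That probe gave 0.04 ± 0.22 (SE, n = 3 per group; limma adjusted p over probes 0.917), too wide a spread to give a direction. MPHOSPH10, like NOP53 below, was given by array because of its negative sign, after its values were seen.

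RRP12, BYSL and LTV1 act late, in maturation and export of the small subunit precursor, and all 3 were called higher. RRP12, a helical-repeat export factor, stood at log2 levels of 10.09, 10.25 and 10.30 in control and at 11.02, 11.10 and 10.94 with sorafenib. The lowest sorafenib array was well above the highest control array. The difference was 0.81 ± 0.09 (SE, n = 3 per group; limma adjusted p 0.00206), a fold of 1.75. BYSL, which travels with the small subunit precursor towards the cytoplasm, differed by 0.50, and LTV1, which leaves the particle in the cytoplasm, by 0.35. LTV1 was not called with median scaling, nor when control replicate 2 or sorafenib replicate 2 was omitted.

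Of the 8 remaining small subunit factors, 5 were called higher. These were UTP20 (0.54), a very large scaffold protein, NOC4L (0.51) and NOP14 (0.38), which act as partners, UTP14A (0.49), an activator of the helicase that takes U3 off the precursor, and NOL7 (0.25). NOL7 lost its call without any 1 of the 6 arrays, and also with median scaling, cyclic loess, no detection filter and single probes. NOP14 lost its call without 4 of the 6 arrays, with median scaling and with averaged probes. UTP23 (0.34), NOP9 (0.21) and NOL10 (0.15) did not pass, although UTP23 was called when replicate number was blocked.

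Among the 19 large subunit factors tested, 14 were called higher (73.7%, beside 11.0% of all genes) and 0 lower (beside 14.3%). Their median difference was 0.40 on the log2 scale. The sorafenib arrays stood above the control arrays for 16 of them, beside 21.6% of all genes. The count was 7 with median scaling and 8 without sorafenib replicate 2. The largest differences were those of NOP16, BOP1 and NOP2.

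PES1, BOP1 and WDR12 form the PeBoW complex, which is needed to process the precursor of the 60S subunit, and all 3 members were called higher. BOP1, which bridges the other members, had log2 levels of 11.43, 11.52 and 11.52 in control and of 12.25, 12.21 and 12.25 with sorafenib. The arrays of each group agreed closely and the groups were far apart. The difference was 0.75 ± 0.07 (SE, n = 3 per group; limma adjusted p 0.00117), a fold of 1.68. Its smallest and largest values over the 18 alternatives were 0.72 and 0.79.

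PES1 stood at log2 levels of 9.21, 9.25 and 9.26 in control and of 9.53, 9.75 and 9.69 with sorafenib. Control arrays were nearly equal, and all sorafenib arrays were higher. The difference was 0.41 ± 0.08 (SE, n = 3 per group; limma adjusted p 0.0135), and it did not pass with median scaling or without sorafenib replicate 2. WDR12, the WD-repeat member, stood at 12.14, 12.05 and 12.11 in control and at 12.46, 12.43 and 12.53 with sorafenib. These groups did not overlap either. Its difference was 0.37 ± 0.07 (SE, n = 3 per group; limma adjusted p 0.012), lost with median scaling only. A second WDR12 probe gave 0.28 and did not pass (limma adjusted p over probes 0.0866).

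Both methyltransferases on the list were called higher. NOP2, which methylates a cytosine of the large subunit RNA, had log2 levels of 12.20, 12.25 and 12.11 in control and of 12.79, 12.73 and 12.86 with sorafenib. All sorafenib arrays were well above control. The difference was 0.61 ± 0.08 (SE, n = 3 per group; limma adjusted p 0.00312), a fold of 1.53. RRP8, which methylates an adenine of the same RNA, differed by 0.35, a call lost with median scaling and without 5 of the 6 arrays.

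NOP16, a factor of early large subunit particles, stood at log2 levels of 10.61, 10.57 and 10.71 in control and of 11.31, 11.39 and 11.46 with sorafenib. The groups did not overlap and were far apart. The difference was 0.76 ± 0.08 (SE, n = 3 per group; limma adjusted p 0.00169), a fold of 1.69. RRS1 (0.59), which helps to bring in the 5S ribonucleoprotein, and RRP15 (0.58) and RRP1 (0.57), both constituents of early particles, were also called and kept their calls in all 18 alternatives. PPAN (0.56) and NIP7 (0.38) were called too, but each lost the call without 5 of the 6 arrays and with no detection filter. PPAN also lost it with single probes, and NIP7 with median scaling.

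GTPBP4, a GTPase of the nucleolar precursor, was called higher by 0.40, lost with median scaling only (adjusted p 0.0665). NOC3L (0.38), a transport and assembly factor, was called, whereas its family member NOC2L (0.23; adjusted p 0.141) was not. The NOC3L call was lost with median scaling and without 4 of the 6 arrays, and the difference between these genes was not tested. NOL12, implicated in processing within the spacer, was called (0.35; lost with median scaling and without sorafenib replicate 2), and NOL9, the kinase that acts on the cut end of the spacer, was not: its difference of 0.42 had an SE of 0.25 and its groups overlapped. NOL9 was called when replicate number was blocked. RRP1B (0.25; adjusted p 0.0562) and NOL8 (0.23; adjusted p 0.0934) had no overlap between groups and did not pass.

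NOP53, which in yeast recruits the RNA exosome to the large subunit precursor, was the only large subunit factor with a negative difference. Its log2 level was 13.28, 13.40 and 13.24 in control and 13.11, 13.15 and 13.14 with sorafenib. All sorafenib arrays were lower, by a small margin. The difference was -0.17 ± 0.07 (SE, n = 3 per group), with an adjusted p of 0.129 in limma and 0.0472 when the variance was fitted with trend and robust.

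SnoRNPs guide chemical marks on ribosomal RNA, the box C/D class for methylation of the sugar and the box H/ACA class for pseudouridine. For 6 of the 7 core proteins all sorafenib arrays stood above all control arrays, beside 21.6% of all genes. Their median difference was 0.33 on the log2 scale. Of the 7, 5 were called higher (71.4%, beside 11.0% of all genes) and 0 lower (beside 14.3%). The count was 2 with median scaling. Leaving out 1 array gave 2 without control replicate 1 or sorafenib replicate 1, 3 without control replicate 3 or sorafenib replicate 2, and 4 otherwise. They were abundant, with a median at percentile 91.1 of the genes tested.

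All 3 box C/D proteins were called. NOP58 had log2 levels of 11.65, 11.84 and 11.78 in control and of 12.18, 12.14 and 12.29 with sorafenib, without overlap. The difference was 0.45 ± 0.08 (SE, n = 3 per group; limma adjusted p 0.0114), and the call held in all 18 alternatives. NOP58 pairs with NOP56 to hold the guide RNA.

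NOP56 had log2 levels of 13.46, 13.28 and 13.48 in control and of 13.94, 13.72 and 13.79 with sorafenib. All sorafenib arrays were above all control arrays. The difference was 0.41 ± 0.09 (SE, n = 3 per group; limma adjusted p 0.0226), lost with median scaling and when control replicate 1 or 2 or sorafenib replicate 1 was omitted (adjusted p up to 0.0733). FBL, fibrillarin, is the methyltransferase of the particle. Its log2 level was 12.35, 12.44 and 12.32 in control and 12.79, 12.70 and 12.63 with sorafenib. The groups did not overlap, and the spread within each was similar. The difference was 0.33 ± 0.08 (SE, n = 3 per group; limma adjusted p 0.023), lost with median scaling and without 4 of the 6 arrays (adjusted p up to 0.15).

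In the box H/ACA core, DKC1 and GAR1 were called and NHP2 and NOP10 were not. DKC1, dyskerin, is the pseudouridine synthase and also a part of telomerase. Its log2 level was 13.07, 12.93 and 12.98 in control and 13.45, 13.52 and 13.59 with sorafenib. Every sorafenib array was clearly higher. The difference was 0.53 ± 0.08 (SE, n = 3 per group; limma adjusted p 0.00506), a fold of 1.44, and it held in all 18 alternatives. GAR1 differed by 0.33, lost with median scaling and without 5 of the 6 arrays, and NHP2 and NOP10 by 0.21 and 0.20 with adjusted p of 0.136 and 0.0675. The sorafenib arrays were all higher for NOP10 and overlapped with control for NHP2.

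Of the 3 other nucleolar proteins tested, NOLC1 and NPM3 were called higher, beside 11.0% of all genes. With median scaling, or without any 1 array other than sorafenib replicate 2, the count was 1. NOLC1, a phosphoprotein that shuttles snoRNPs between nuclear bodies, had log2 levels of 10.16, 10.35 and 10.22 in control and of 10.90, 11.01 and 11.05 with sorafenib. The groups were far apart. The difference was 0.74 ± 0.08 (SE, n = 3 per group; limma adjusted p 0.00225), a fold of 1.67.

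NPM3, a relative of the histone chaperone nucleophosmin, stood at log2 levels of 12.11, 12.04 and 12.04 in control and of 12.38, 12.32 and 12.57 with sorafenib. All sorafenib arrays were higher, replicate 3 most. The difference was 0.36 ± 0.09 (SE, n = 3 per group; limma adjusted p 0.0268), a call lost with median scaling and without 5 of the 6 arrays. NCL, nucleolin, an abundant RNA-binding protein, had log2 levels of 13.84, 13.86 and 13.90 in control and of 14.06, 14.06 and 14.22 with sorafenib. The sorafenib arrays were all higher, by a small margin. The difference of 0.25 ± 0.08 (SE, n = 3 per group) did not pass in limma (adjusted p 0.0557), and passed once replicate number was blocked (adjusted p 0.044). A second, dimmer NCL probe gave 0.54 with an adjusted p over probes of 0.008.

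**Figure D3:**
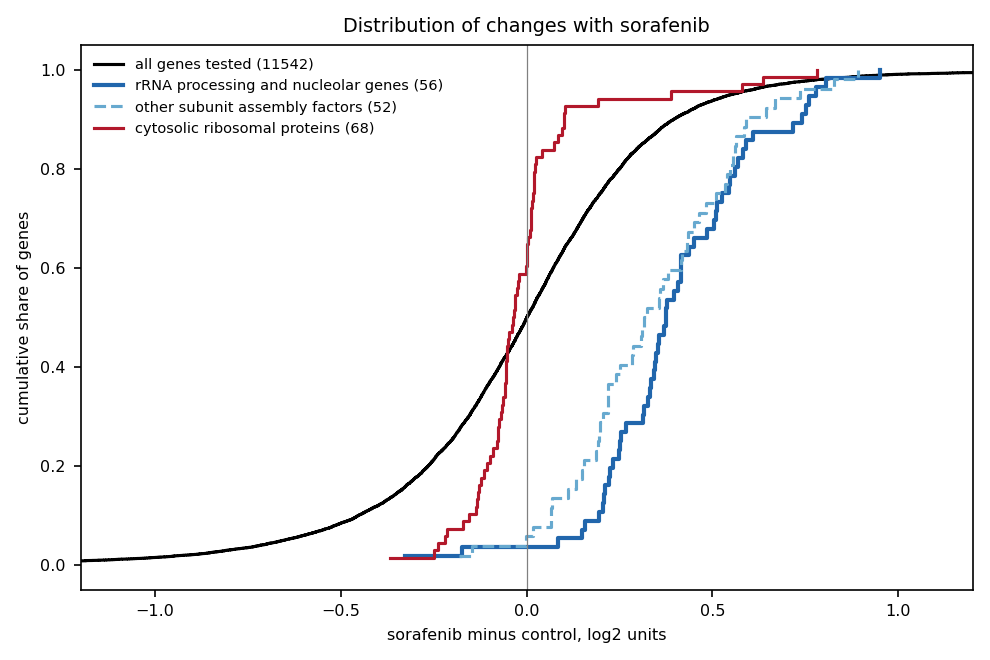
Cumulative share of genes (vertical axis) against the log2 difference, sorafenib minus control (horizontal axis, which leaves out the most extreme genes), for all 11542 genes tested, the 56 processing and nucleolar factors, the further subunit assembly factors and 68 cytosolic ribosomal proteins. The curves of both factor groups lie mostly to the right of 0, and the ribosomal proteins rise steeply near 0.

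Counted by probe, 46 of the 78 kept probes were called higher (59.0%) and 0 lower, beside 9.55% of the 15278 probes tested. The difference was positive for 76 of the 78. Of the 15 genes with several kept probes, 14 had positive differences on each of them and 5 were called on each. The 22 probes that did not represent a gene all had positive differences, and 11 of them were called. The probes differed most for NOL6, at 0.78 and 0.26, and for NOC4L, at 0.51, 0.39 and 0.00. In both genes the smallest difference was that of the dimmest probe. Its control log2 levels were 5.85 to 5.98 for NOL6 and 5.69 to 6.04 for NOC4L.

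**Figure D4:**
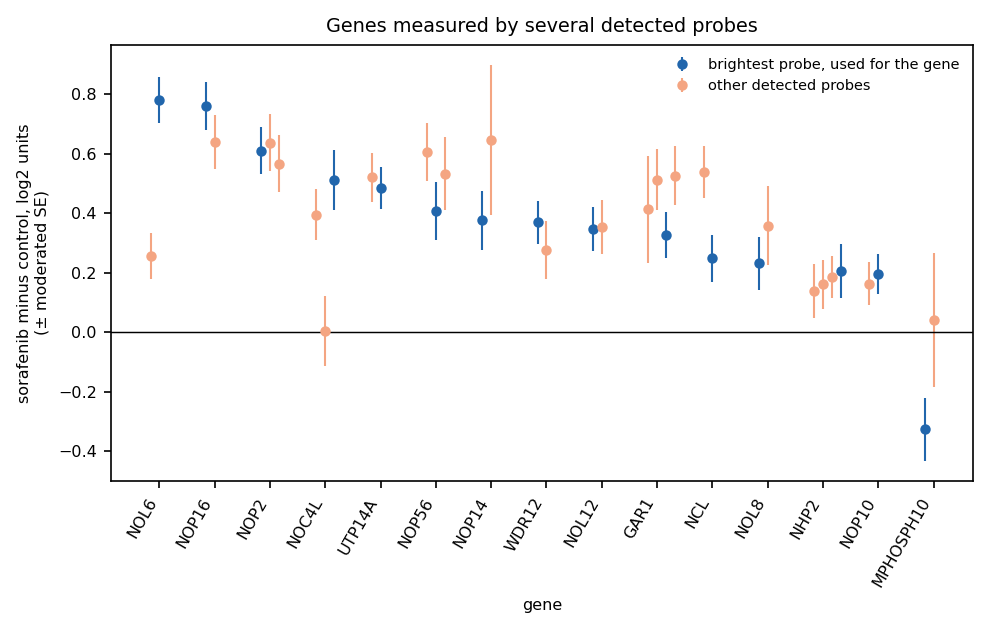
Log2 difference, sorafenib minus control, of every kept probe of the 15 genes with several kept probes. Blue points are the probes that represent a gene, pale points its other probes and lines the moderated SE. Among these genes only MPHOSPH10 has a probe below 0.

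Other genes of the pathway were counted from written lists. Of 24 further small subunit factors, 12 were called higher and 0 lower (beside 11.0% and 14.3% of all genes), with a median difference of 0.31. The largest differences among the called genes were those of UTP25 (0.64), PNO1 (0.54) and TSR1 (0.45), and the count was 3 with median scaling, 4 to 6 without control replicate 1 or 2 or sorafenib replicate 1 or 2, and 8 or 9 without the other arrays. TSR1 lost its call with median scaling and without 5 of the 6 arrays. Of 28 further large subunit factors tested, 16 were called higher and 0 lower (beside 11.0% and 14.3% of all genes), with a median of 0.35. The called genes were led by MYBBP1A (0.89), MRTO4 (0.83) and the large ATPase MDN1 (0.74).

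Of 10 factors tested that assemble snoRNPs, 2 were called higher and 0 lower, beside 11.0% and 14.3% of all genes, with a median of 0.24. These were the paired ATPases RUVBL1 (0.42) and RUVBL2 (0.33). RUVBL1 was lost with median scaling, and RUVBL2 also without control replicate 2 or 3 or any 1 sorafenib array. Counts ran from 0 with median scaling to 6 with a stricter detection limit.

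The cytosolic ribosomal proteins, the building blocks that these factors put in place, differed little. Of 68 tested, 4 were called higher and 1 lower (5.88% and 1.47%, beside 11.0% and 14.3% of all genes), and the median difference was -0.04. They were very abundant, at a median percentile of 97.9, and 0 of the 48 in the top decile of levels were called. Of the processing factors in that decile, 10 of 14 were called. The sets were not matched on level there: median control levels were 13.1 for these factors and 14.6 for the ribosomal proteins. RPL36A (0.78), RPS7 (0.64) and RPL29 (0.58) were higher and RPL28 (-0.37) was lower. Their probes were not among the abundant ones: mean control log2 levels were 5.66, 8.61, 7.34 and 9.11 in that order, beside a list median of 14.0. RPL28 lost its call with median scaling and without any control array or sorafenib replicate 2.

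The list of nucleolar transcription factors and MYC network genes gave 2 calls higher and 1 lower of 12 tested (16.7% and 8.33%), near the 11.0% and 14.3% of all genes, with a median of 0.11. None of UBTF, RRN3, TTF1, TAF1A, TAF1B, TAF1C and TAF1D, which act in ribosomal RNA transcription, passed, with differences between 0.07 and 0.28. MYC, a transcription factor whose known targets include ribosome assembly genes, had log2 levels of 11.94, 12.05 and 11.99 in control and of 12.54, 12.58 and 12.80 with sorafenib. The groups did not overlap. The difference was 0.64 ± 0.09 (SE, n = 3 per group; limma adjusted p 0.00447). MYC was known to be higher in these arrays when the list was written, so it supports nothing independently here. Its partner MAX differed by 0.38 with an adjusted p of 0.0497, which missed the threshold in most alternatives, every single left-out array among them. MXD1, which competes with MYC for MAX, was lower by a log2 difference of -0.47, lost with median scaling and without sorafenib replicate 2.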

How the data were processed

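Expression was measured on Illumina BeadChips in 3 control and 3 sorafenib arrays. For 47323 probes on each array, the authors' deposited tables hold an intensity, unnormalized going by its values, and a detection p-value. The value table of the authors is in log2 units and equals the log2 of quantile-normalized intensities within 0.0155, with a median of 7.09. It served as an alternative. Scanner settings were not given in the sources used here. No pair of arrays held identical values.

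Intensities were background-corrected with limma's normexp model (negative controls inferred from detection p, offset 16), quantile normalized and put on a log2 scale. Probes detected at p under 0.05 on at least 3 of 6 arrays were kept, 20120 in all, of which 15278 had 1 gene symbol. In the platform annotation 30113 probes had 1 symbol, 8 had several and 17202 had none, and 30074 were matched by gene number to RefSeq (GRCh38.p14). The brightest probe on average stood for its gene. Groups were compared with lmFit and eBayes over 11542 genes, two-sided, with Benjamini-Hochberg adjustment and a threshold of 0.05, and the fit was checked on simulated data. The number of arrays limits the precision. Differences are sorafenib minus control log2 values, and their size in dim probes depends on the background correction. Fits without an array kept the normalization of all 6.

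The factors, the gene lists and the tests were chosen with earlier results of these data known. Each factor may be named; values by array were given for the called factors with the 3 largest changes per subgroup and for HEATR1, FBL, NCL, DKC1, PES1, BOP1 and WDR12. Of each other list the 3 called genes that changed most and 1 that went the other way were named, and MYC always. TAF1A, TAF1B, TAF1C, TAF1D, UBTF, RRN3 and TTF1 were named after their values were seen.

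Both groups carry replicate numbers 1 to 3 in the titles, whose meaning is unstated. After group means were removed, arrays of equal number correlated at 0.30, 0.30 and 0.42 and others at -0.34 to 0.07. On this evidence alone, arrays of equal number may be pairs. The main fit took no account of the number, so its SEs, p-values and calls are unpaired. The fit with the number as a block was an alternative to the planned one. The others were no background correction, cyclic loess, median scaling, an offset of 50, the authors' values, a detection limit of 0.01 on every array, no filter, averaged probes per gene, single probes, array weights, trend and robust variance, and each array left out. R 4.3.3, limma 3.58.1, statmod 1.5.0, Python 3.11.15, pandas 2.3.3 and matplotlib 3.10.9 were used.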

Additional observations from a re-analysis of the deposited data

How the results depend on the processing

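Of the 38 factors called higher, 17 kept the call in all 18 alternatives and 21 lost it in at least 1. All 38 differences stayed positive in each alternative, and of the single-gene results 1096 stayed on their side of the threshold, 131 fell short of it, 34 came to pass it and 0 turned sign. With median scaling 20 factors were higher, with 10 small subunit, 7 large subunit, 2 snoRNP core and 1 other nucleolar, and 3 of the further small subunit factors. It left 0 snoRNP assembly factors and 1 nucleolar transcription gene higher, 0 of the latter and 0 ribosomal proteins lower, and over all genes 641 higher and 891 lower against 1272 and 1649. The cause was not tested.

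With the replicate number as a block (the paired fit), 41 factors were higher, all 38 calls among them with UTP23, NOL9 and NCL added, and over all genes 1664 were higher and 2015 lower. It changed no other factor's call except MPHOSPH10. MPHOSPH10 was called lower, as the 1 small subunit factor that fell, with the replicate block, no background correction, an offset of 50, the authors' values, the stricter detection limit, array weights, and trend and robust variance. The last gave 2 lower factors, NOP53 being the 1 in the large subunit.

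Leaving out 1 array gave 621 to 980 genes higher over all genes, 621 being without sorafenib replicate 2, and 26 to 29 factors higher, with 10 to 15 small subunit, 8 to 11 large subunit, 2 to 4 snoRNP core and 1 to 2 other nucleolar. Further small subunit factors numbered 4 to 9, snoRNP assembly factors 1 to 2, nucleolar transcription genes 1 higher and 0 to 1 lower, and ribosomal proteins 0 to 1 lower. These fits have fewer samples. snoRNP assembly factors called higher numbered 5 without background correction, with the authors' values, with trend and robust variance and with array weights, 6 with the stricter detection limit and 1 with no filter. Nucleolar transcription genes called higher numbered 1 without background correction, with cyclic loess, the authors' values, no filter, the mean of a gene's probes, and trend and robust variance. Those called lower numbered 2 without background correction, with the authors' values, the stricter detection limit, trend and robust variance, array weights and the replicate block. Ribosomal proteins called lower numbered 3 without background correction and with the authors' values, 2 with the mean of a gene's probes and 4 with trend and robust variance. The causes were not tested. Dim probes lie near background, and the log2 difference of WDR3, 0.41, was 0.16 without background correction.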
